A study of Mus musculus with 2 samples.

Results

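The CTCF and cohesin genes are 9 genes of the machinery that folds chromatin into loops, *Ctcf*, *Rad21*, *Smc1a*, *Smc3*, *Stag1*, *Stag2*, *Nipbl*, *Pds5a* and *Pds5b*. They were chosen by symbol from the 27998 genes of a CITE-seq data set, and each symbol matched 1 gene. In CITE-seq, each cell is stained with antibodies tagged by short DNA barcodes, and the barcodes are sequenced along with the cell's transcripts, so surface markers and gene expression are read in the same cell. The cells came from fetal livers of C57BL/6 mouse embryos at e13.5, pooled from 7 embryos with no treatment or genetic change named in the labels, and were partly depleted of Ter119+ cells, after which an equal number of Ter119+ cells was put back. The data are 1 cDNA library and 1 antibody library of the same 7863 cells.

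There are no replicates, and cells of 1 library are not replicates, so no test between populations was possible and no p-value is given. Values in brackets are exact 95% intervals for counting error alone, and differences between embryos, libraries or gates lie outside them. Because the embryos were pooled and Ter119+ cells were put back by hand, the numbers of cells per population do not describe the liver.

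CTCF is a zinc finger protein that binds DNA and anchors loops and domain borders. Cohesin is a ring made of the SMC proteins Smc1a and Smc3 and closed by Rad21, to which Stag1 or Stag2 binds. Nipbl, with Mau2, loads the ring and drives the extrusion of loops, Pds5a and Pds5b act with Wapl in its release and at CTCF sites, and cohesin also holds sister chromatids together in dividing cells. Erythroid progenitors divide rapidly while they switch on the globin genes, then stop dividing and condense their chromatin before the nucleus is lost.

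Cells were ordered by 2 antibodies, against Ter119, a surface marker of late erythroid cells, and against CD71, the transferrin receptor, which is high in dividing erythroid cells. These barcodes are shown because every population below rests on counting them:
Ter119: GAGGCGATTGAT
CD71: CGAAGAAGGAGT

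Of the members, 6 had a promoter window in the RefSeq table of build GRCm38.p6, which is the mm10 assembly the reads were mapped to. *Rad21*, *Stag2* and *Nipbl* had no window, so the matches below do not cover them. A window runs from 250 bases before an annotated start to 50 bases after it. Matches to 8 short motifs, searched on both strands, are given, and the GC box (GGGCGG) was found in 6 of the 6 windows, against 35.7% of all 32851 windows. The CCAAT box (CCAAT) was found in those of *Smc1a*, *Stag1* and *Pds5b* (37.4% of all windows), an E2F motif (TTTGGCGC, TTTCGCGC or TTCCCGCC) only in that of *Pds5a* (2.96%) and a GATA motif (AGATAA or TGATAA) only in that of *Ctcf* (18.6%). No window of a member held CCGGAAG (ETS, 8.86% of all windows), AAGATGGCG (YY1, 1.4%), TGACGTCA (CREB, 1.79%) or CACGTG (E-box, 7.15%), and these are matches of letters, not bound sites. An NRF1 motif was also searched and matched the windows of *Stag1* and *Pds5b*, and its letters and its share of all windows are not given here.

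The 120 bases before the start of 3 members are shown because their transcripts were in different proportions late in differentiation. Capitals mark motif matches, read on either strand, and each line runs 5′ to 3′ on the strand of the gene. They lie at chrX:152016308-152016427 on the plus strand, chr19:53600276-53600395 on the plus strand and chr5:65698237-65698356 on the minus strand (GRCm38.p6), each directly upstream of the annotated gene.
Smc1a: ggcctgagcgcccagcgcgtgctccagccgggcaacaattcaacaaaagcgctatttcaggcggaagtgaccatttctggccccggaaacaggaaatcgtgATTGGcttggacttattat
Smc3: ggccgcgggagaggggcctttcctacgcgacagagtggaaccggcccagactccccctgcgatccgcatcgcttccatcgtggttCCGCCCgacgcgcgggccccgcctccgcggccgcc
Pds5a: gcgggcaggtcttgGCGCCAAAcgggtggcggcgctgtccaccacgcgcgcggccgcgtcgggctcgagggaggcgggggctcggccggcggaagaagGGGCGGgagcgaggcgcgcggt
The GATA match of *Ctcf*, the motif of the erythroid factor Gata1, begins 46 bases before the start used in the table, inside the gene as annotated, and is shown with the bases around it, at chr8:105636480-105636509 on the plus strand.
Ctcf: ccgactcttcccTTATCAgcacccgcggcc

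*Rad21* (ENSMUSG00000022314) lies on chromosome 15 from 51962604 to 51993538, and *Nipbl* on the same chromosome from 8289824 to 8465315. *Smc1a* and *Stag2* are on chromosome X, from 152016428 to 152061973 and from 42149297 to 42277186. *Pds5a* and *Pds5b* are both on chromosome 5, from 65605719 to 65698236 and from 150673713 to 150810669. *Smc3* lies on chromosome 19 from 53600396 to 53645831, *Ctcf* on chromosome 8 from 105636474 to 105682922 and *Stag1* on chromosome 9 from 100597709 to 100958544.

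After filtering, 6194 cells were placed in 6 populations along erythroid differentiation, S0-low (1514 cells), S0-medium (1048), S1 (610), S2 (1284), S3 (851) and S4/S5 (887). S0-low, S0-medium and S1 have low Ter119 and rising CD71, S2 has intermediate Ter119 and high CD71, S3 has high Ter119 and high CD71, and S4/S5 has high Ter119 with falling CD71. Median depth in the same order was 6146, 10303.5, 10132.5, 6051, 4491 and 3943 UMIs (unique molecular identifiers, 1 per captured transcript) per cell. The labelled cell type was read against its markers, where S0-low had 60.9 CPM of *Kit*, a receptor of early progenitors, against 4.21 CPM in S4/S5. *Tfrc*, which encodes CD71, was at 90.6 CPM in S0-low, 317 CPM in S2 and 120 CPM in S4/S5. In non-globin CPM, a scale without globin transcripts that is defined below, *Tfrc* was at 91.5 in S0-low and 364 in S2. On that scale *Tfrc* was at 499 in S3 and 335 in S4/S5, so S4/S5 stayed well above S0-low. *Kit* in non-globin CPM was at 61.6 in S0-low, 9.92 in S1, 5.38 in S2, 6.18 in S3 and 11.8 in S4/S5.

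S0-low also held other cells. In this population 24.4% of cells (369) lay above a border of hepatocyte, megakaryocyte, myeloid or macrophage marker counts, against at most 1.01% in any other population, and the summed markers of hepatocytes reached 8994 CPM there. Of these, 253 lay above the myeloid border and 110 above the hepatocyte border, all in cells already gated as low in lineage antibodies. The myeloid border is not a sharp one, with 485 of the 7200 cells that passed the filters within 2-fold of it. Lymphoid markers summed to 7.62 CPM in S0-low, with 47 UMIs of *Ebf1*, 34 of *Il7r*, 8 of *Cd79a* and 0 of *Cd3e*. The main ratios of S3 to S0-low are therefore also given without the cells above the border, which leaves 1145 cells in S0-low.

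A level is given here on 2 scales. CPM is the number of UMIs of a gene per 1000000 UMIs of all genes of the population, and non-globin CPM is the same per 1000000 UMIs of genes other than the 10 globin genes. The scales part late in differentiation because globin transcripts made up 1.04% of UMIs in S0-low, 2.81% in S1, 13.0% in S2, 38.5% in S3 and 64.2% in S4/S5. A lower level in a population may be fewer cells with the transcript or less of it per cell, and these cannot be told apart from summed counts. UMIs count the 3′ ends of transcripts and are not given per length, so levels are compared between populations and not between genes.

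Summed over the 9 members, the level was nearly even from S0-low to S2 and lower after it in CPM. From S0-low to S4/S5 it was 887 (870–904), 892, 888, 864, 589 (567–612) and 215 (200–230) CPM. The ratio to the population before was 1.01 for S0-medium (0.978–1.03), 0.995 for S1 (0.963–1.03) and 0.973 for S2 (0.940–1.01), each within counting error of 1. Without the cells above the marker border, S0-medium was at 0.953 of S0-low (0.925–0.981). S3 was at 0.682 of S2 (0.652–0.712) and S4/S5 at 0.365 of S3 (0.337–0.395).

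In non-globin CPM the same sum was 896, 904, 913, 993, 957 and 600 over the 6 populations. On this scale S2 was 1.09 times S1 (1.05–1.13), S3 did not differ from S2 beyond counting error (0.964, 0.922–1.01), and S4/S5 was at 0.626 of S3 (0.578–0.678). S3 over S0-low was 0.664 in CPM (0.636–0.693) and 1.07 per non-globin UMI (1.02–1.12), so the direction of this sum depends on the scale. The second value was 0.958 as a mean over cells, and 1.01 (0.968–1.06) without the cells above the marker border, within counting error of 1. Counted per cell, it went from 6.83 UMIs in S0-low and 9.22 in S0-medium to 3.10 in S3 and 0.920 in S4/S5.

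The members differed in how far they moved. From S0-low to S3 in CPM, *Pds5a*, *Pds5b*, *Smc3*, *Ctcf* and *Smc1a* were at least 1.5-fold lower, 5 of 9 members, against 76.8% of the 9397 genes with at least 50 UMIs in the 2 populations together, and 0 were that much higher (background 8.02%). Per non-globin UMI, *Pds5a* and *Pds5b* were at least 1.5-fold lower (2 of 9, background 56.3%) and *Rad21* and *Stag2* at least 1.5-fold higher (2 of 9, background 14.8%). The median ratio of the members was 0.643 in CPM and 1.04 per non-globin UMI, and that of all genes tested 0.367 and 0.590. Without the S0-low and S3 cells above the marker border the counts were again 5 lower in CPM (background 75.2%) and 2 lower and 2 higher per non-globin UMI (54% and 15.9%).

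**Figure D1:**
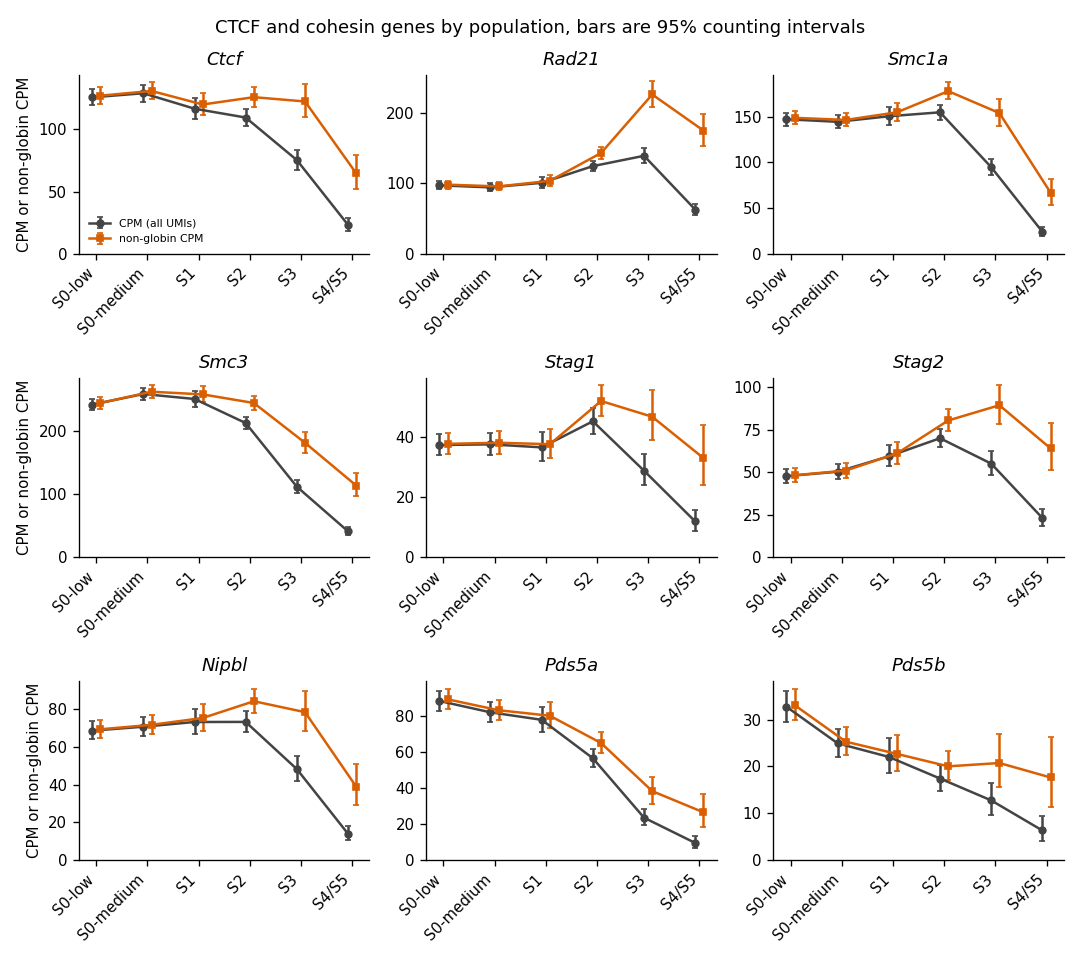
Level of each member in the 6 populations, in CPM (dark circles) and non-globin CPM (orange squares), each with its own vertical axis from 0. Bars are exact 95% counting intervals of 1 library. The scales part from S2 on, and *Rad21* is highest in S3 on both. *Pds5a* is lower in S2 than in S1 and lower in S3 than in S2 on both.

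Of the ring subunits, *Rad21*, which encodes the kleisin that closes the ring, was the only one of the 9 members that was highest in S3 on both scales. Along the 6 populations it was at 97.1 (91.5–103), 94.2, 101, 124, 139 (128–150) and 62.7 CPM. The first 3 populations did not differ beyond counting error, S2 was 1.24 times S1 (1.12–1.36) and S3 was 1.12 times S2 (1.01–1.23). Its non-globin CPM went from 98.1 in S0-low to 143 in S2, 226 in S3 (209–245) and 175 in S4/S5.

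For *Rad21*, S3 over S0-low was 1.43 in CPM (1.30–1.58) and 2.31 per non-globin UMI (2.09–2.54), but 0.977 per cell (0.884–1.08), where the fewer UMIs of an S3 cell count too. Without the cells above the marker border these were 1.43 in CPM and 2.30 per non-globin UMI. A *Rad21* UMI was found in 45.9% of S0-low cells and 43.9% of S3 cells, and after each cell was thinned to 2000 UMIs in 17.4% and 21.9%. No population here should lack the gene, so no background share can be set beside these.

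*Smc3*, which encodes one of the SMC arms of the ring, went the other way. Its level over the 6 populations was 242 (233–251), 258, 251, 212, 111 (102–122) and 40.6 CPM. In non-globin CPM it held at 244 to 262 from S0-low to S2, and was 181 in S3 and 113 in S4/S5. Its ratio of S3 to S0-low was 0.461 in CPM (0.418–0.507) and 0.741 per non-globin UMI (0.673–0.816), and without the cells above the marker border 0.421 and 0.678.

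Between the first 2 populations, *Smc3* in S0-medium was at 1.07 of S0-low (1.01–1.13), and this ratio was 0.980 without the cells above the marker border.

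*Smc1a*, which encodes the other SMC arm, was at 147, 145, 151, 155, 94.8 and 24.0 CPM over the 6 populations. In non-globin CPM it was highest in S2, at 178 (169–188), against 149 in S0-low, 154 in S3 and 66.9 in S4/S5. The ratio of S3 to S0-low was 0.643 in CPM (0.577–0.716) and 1.04 per non-globin UMI (0.929–1.15), and without the cells above the marker border 0.635 and 1.02. From S3 to S4/S5 it was the member with the lowest ratio, 0.253 in CPM (0.199–0.318) and 0.434 per non-globin UMI (0.342–0.545). On both scales its interval overlaps those of all other members except *Rad21* and *Stag2*.

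The balance of the 3 ring transcripts was read from the ratio of their UMIs, in which the denominator cancels and globin has no part. Per *Smc3* UMI there were 0.402 (0.375–0.430), 0.365, 0.402, 0.586 (0.544–0.630), 1.249 (1.11–1.41) and 1.55 (1.26–1.91) *Rad21* UMIs from S0-low to S4/S5. The change from S0-low to S3 was 3.11-fold (2.71–3.57), that from S1 to S2 1.46-fold (1.29–1.64) and that from S2 to S3 2.13-fold (1.85–2.46). From S3 to S4/S5 it was within counting error of no change (1.24, 0.973–1.58).

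*Rad21* UMIs per *Smc1a* UMI went from 0.659 in S0-low to 0.803 in S2, 1.47 in S3 and 2.62 in S4/S5, and from S3 to S4/S5 this ratio changed 1.78-fold (1.35–2.37). The 2 SMC arms stayed closer to each other, but their ratio also changed beyond counting error. *Smc1a* per *Smc3* changed 1.40-fold from S0-low to S3 (1.21–1.61), or 1.51-fold without the cells above the marker border (1.30–1.75). From S3 to S4/S5 it changed 0.694-fold (0.513–0.936). There were 0.610 *Smc1a* UMIs per *Smc3* UMI in S0-low, 0.730 in S2, 0.851 in S3 and 0.591 in S4/S5, which did not differ from S0-low beyond counting error (0.969, 0.734–1.27). Without the cells above the marker border the 3.11-fold change of *Rad21* per *Smc3* was 3.39-fold.

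**Figure D2:**
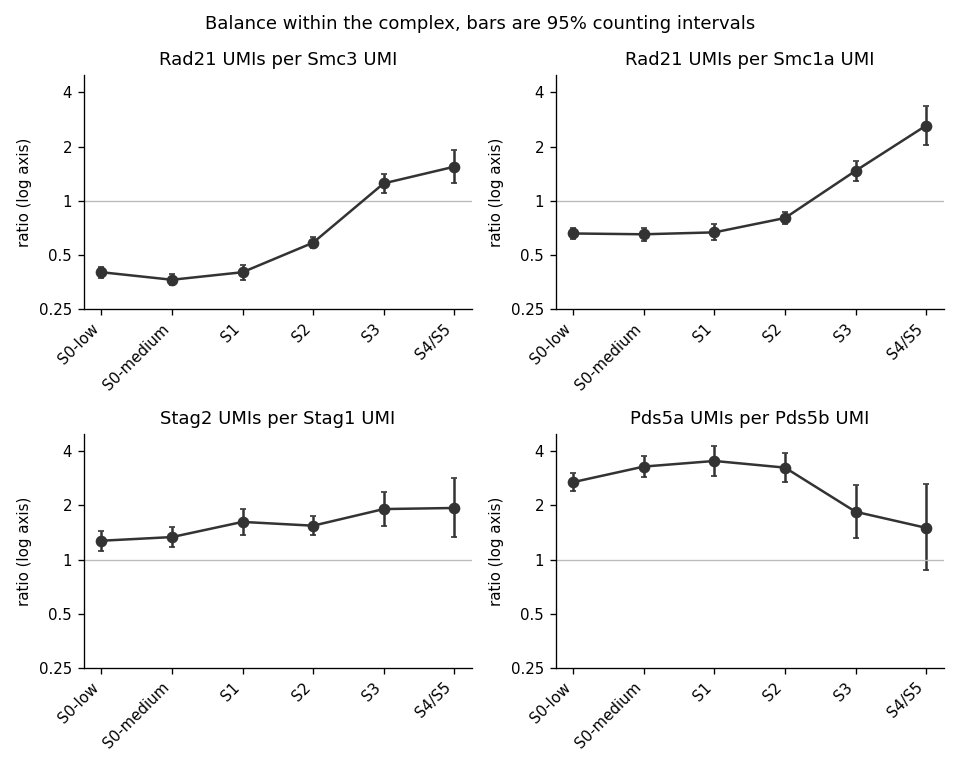
Ratio of the UMIs of 2 members in each population, on a log axis, for Rad21 per Smc3, Rad21 per Smc1a, Stag2 per Stag1 and Pds5a per Pds5b. Bars are exact 95% counting intervals. Rad21 per Smc3 goes from 0.402 in S0-low to 1.249 in S3. Pds5a per Pds5b is 2.69 in S0-low, 3.53 in S1 and 1.84 in S3.

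*Stag1* and *Stag2* encode alternative subunits, so that a ring carries one or the other. *Stag2* was at 47.6 (43.8–51.8), 50.2, 59.3, 70.0 (64.7–75.6), 55.0 and 22.9 CPM over the 6 populations. S1 was 1.18 times S0-medium (1.03–1.35) and S2 was 1.18 times S1 (1.04–1.34). The non-globin CPM of *Stag2* was 48.1 in S0-low, 80.4 in S2 and 89.4 in S3 (78.6–101), and S3 did not differ from S2 beyond counting error (1.11, 0.956–1.29).

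For *Stag2*, S3 over S0-low was 1.86 per non-globin UMI (1.59–2.16), 1.15 in CPM (0.990–1.34) and 0.787 per cell (0.675–0.916), so its direction depends on the scale too. Without the cells above the marker border the first 2 values were 1.85 and 1.15. *Stag1* was even from S0-low to S1, at 37.4, 37.7 and 36.7 CPM, then 45.4 in S2 (41.1–49.95), 28.8 in S3 and 11.9 in S4/S5. Of the UMIs of the pair, *Stag2* made up 56.0% (52.8–59.1), 57.1%, 61.8%, 60.7%, 65.6% (60.6–70.4) and 65.9% (57.2–73.9) from S0-low to S4/S5. The ratio of *Stag2* to *Stag1* changed 1.499-fold from S0-low to S3 (1.16–1.94), or 1.55-fold without the cells above the marker border (1.19–2.02), and no step between neighbouring populations from S1 on exceeded counting error.

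Of the genes that load and release the ring, *Nipbl*, which encodes the loader, was at 68.7, 70.8, 73.3, 73.3, 48.3 and 14.0 CPM over the 6 populations. Its non-globin CPM was 69.4 in S0-low, 84.3 in S2, 78.5 in S3 and 39.0 in S4/S5. *Nipbl* followed *Smc1a*, with 0.466 *Nipbl* UMIs per *Smc1a* UMI in S0-low, 0.473 in S2 and 0.509 in S3, a change of 1.09-fold from S0-low to S3 that was within counting error (0.904–1.32).

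*Pds5a*, which encodes a regulator bound to the ring, was the member with the lowest ratio of S3 to S0-low. From S0-low on it was at 88.1 (82.8–93.6), 81.8, 77.6, 56.4 (51.6–61.4), 23.5 (19.2–28.4) and 9.48 (6.64–13.1) CPM. The steps from S0-low to S0-medium (0.929, 0.848–1.02) and from S0-medium to S1 (0.949, 0.848–1.06) were within counting error of 1. Its non-globin CPM was 89.0 in S0-low, 79.9 in S1, 64.8 in S2, 38.2 in S3 and 26.5 in S4/S5, where the last step did not exceed counting error (0.693, 0.461–1.02). Its ratio of S3 to S0-low was 0.267 in CPM (0.216–0.326) and 0.429 per non-globin UMI (0.347–0.525), and without the cells above the marker border 0.247 and 0.398.

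*Pds5b*, the paralogue of *Pds5a*, was lower earlier. Over the 6 populations it was at 32.7 (29.5–36.2), 24.9 (22.0–28.1), 22.0, 17.4, 12.7 and 6.32 CPM. S0-medium was at 0.762 of S0-low (0.649–0.892), and at 0.739 without the cells above the marker border (0.625–0.875). This step was within counting error of 1 under other gates, at 0.953 with log10 antibody counts (0.771–1.18), 0.961 with a Gaussian mixture (0.772–1.203) and 0.880 with CD71 terciles (0.741–1.05). The non-globin CPM of *Pds5b* was 20.02 in S2, 20.7 in S3 and 17.6 in S4/S5, which did not differ beyond counting error. There were 2.69 *Pds5a* UMIs per *Pds5b* UMI in S0-low, 3.53 in S1, 3.24 in S2, 1.84 in S3 (1.32–2.59) and 1.5 in S4/S5 (0.871–2.63), the last from only 36 and 24 UMIs. From S0-low to S3 this ratio changed 0.685-fold (0.480–0.984), or 0.646-fold without the cells above the marker border (0.450–0.935).

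The loader and the regulator moved apart. There were 0.780 *Nipbl* UMIs per *Pds5a* UMI in S0-low (0.710–0.856), 0.944 in S1, 1.30 in S2 and 2.06 in S3 (1.62–2.62), a change of 2.64-fold from S0-low to S3 (2.04–3.42), or 2.71-fold without the cells above the marker border. In S4/S5 this ratio was 1.47 (0.946–2.31), from 53 and 36 UMIs.

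*Ctcf* was at 126 (119–132), 129, 117, 110, 75.3 (67.5–83.8) and 23.2 (18.6–28.6) CPM along the 6 populations. In non-globin CPM it was at 127, 131, 120, 126 and 123 from S0-low to S3, and at 64.7 in S4/S5 (51.9–79.7). Its S3 level over S0-low was 0.599 in CPM (0.530–0.674) and 0.963 per non-globin UMI (0.853–1.09), and without the cells above the marker border 0.535 and 0.863 (0.762–0.975).

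Set against cohesin, *Ctcf* did not move alike with all ring subunits. There were 1.30 *Ctcf* UMIs per *Rad21* UMI in S0-low, 1.16 in S1, 0.881 in S2, 0.542 in S3 and 0.370 in S4/S5, a change of 0.418-fold from S0-low to S3 (0.357–0.489), or 0.375-fold without the cells above the marker border. Per *Smc3* UMI there were 0.521 *Ctcf* UMIs in S0-low, 0.516 in S2, 0.677 in S3 and 0.571 in S4/S5, a change of 1.30-fold from S0-low to S3 (1.11–1.52), or 1.27-fold without those cells.

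**Figure D3:**
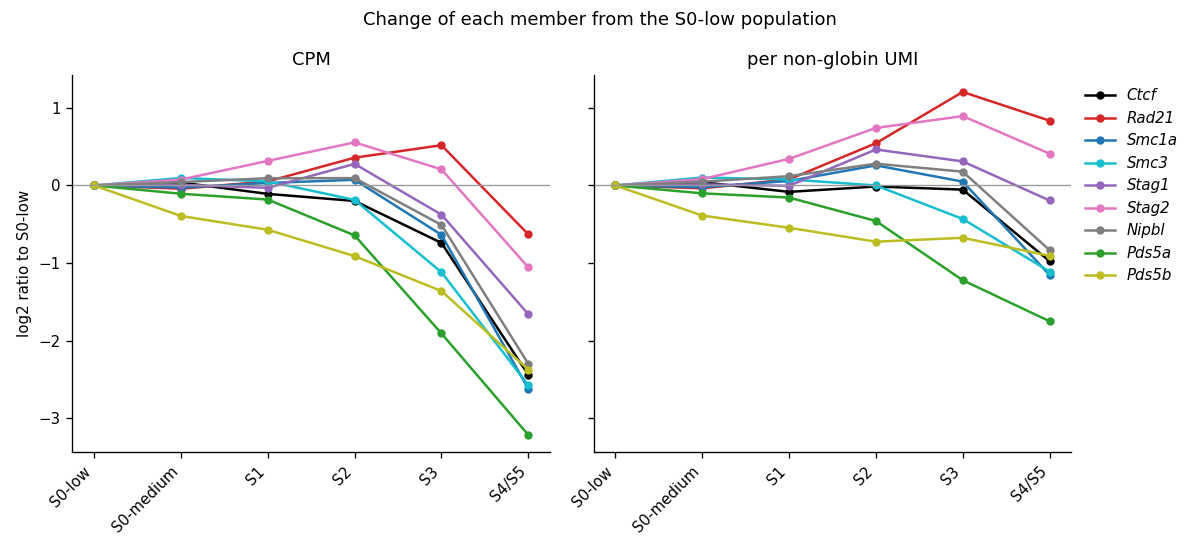
Log2 ratio of each population to S0-low for the 9 members, in CPM (left) and per non-globin UMI (right). Points are values of 1 library without error bars. Rad21 and Stag2 are above 0 in S3 on both scales, Pds5a is lowest in S3 and S4/S5 on both, and in S4/S5 all 9 members are below 0 in CPM.

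From S3 to S4/S5, all 9 members were at least 1.5-fold lower in CPM, as were 76% of the 5469 genes tested. Per non-globin UMI, *Smc1a*, *Nipbl*, *Ctcf* and *Smc3* were at least 1.5-fold lower, 4 of 9, against a background of 19.2%, and no member was higher (9.2% of genes were at least 1.5-fold higher). The median ratio of the members was 0.404 in CPM and 0.693 per non-globin UMI, beside 0.515 and 0.885 over all genes. *Rad21* was at 0.774 per non-globin UMI (0.663–0.8998) and *Pds5b* at 0.851 (0.505–1.39).

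S4/S5 gave 816 UMIs of the 9 members from 887 cells, so its values are the least precise. Over the same step, the summed hepatocyte markers went from 1417 to 2042 non-globin CPM and the myeloid markers from 203 to 517, while 0 and 8 cells of S4/S5 lay above the borders of these lists. From S2 to S3 the hepatocyte markers had gone from 447 to 1417 non-globin CPM and the myeloid markers from 96.6 to 203. In S3, 1 cell lay above the hepatocyte border and 5 above the myeloid border. The part of RNA from outside the cells was not tested in S4/S5 or in any other population.

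Earlier single steps were small. From S0-low to S0-medium, from S0-medium to S1 and from S1 to S2, no member was 1.5-fold higher or lower in CPM, while 19.6%, 9.24% and 28.5% of genes were that much lower and 4.94%, 2.63% and 5.01% that much higher. From S2 to S3, *Pds5a*, *Smc3*, *Smc1a*, *Stag1* and *Nipbl* were at least 1.5-fold lower in CPM (5 of 9, background 60.7%). Per non-globin UMI *Pds5a* was lower (1 of 9, background 19.4%) and *Rad21* higher (1 of 9, background 10.8%).

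Finer groups of cells placed these differences along the antibody counts. Ter119-low cells were split into 10 groups by rising CD71, S2 cells into 3 by rising Ter119 and Ter119-high cells into 5 by falling CD71. In the 10 groups of Ter119-low cells the summed members stayed between 845 and 939 non-globin CPM, and *Ctcf* between 117 and 142. *Rad21* was between 87.3 and 107.5 there.

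Within S2, *Rad21* was at 121 non-globin CPM in the group with the lowest Ter119 (109–133), 139 in the middle one and 185 in the highest (167–204), so that the first and the last did not overlap. *Pds5a* was at 65.5, 65.8 and 62.4 in the same groups, and *Smc3* at 251, 237 and 243. In Ter119-high cells *Rad21* was at 211, 239, 229, 197 and 116 as CD71 fell, with 48 UMIs in the last group (85.4–154).

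*Smc1a* in these 5 groups was at 163, 148, 122, 63.4 and 38.6, and *Ctcf* at 119, 132, 96.3, 70.0 and 43.4. Their last group did not overlap the first in either gene, while the interval of *Pds5a* in the last group (22.1–62.7, from 16 UMIs) included its value in the first, 39.9. The globin share went from 31.5% to 70.9% over the same 5 groups.

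**Figure D4:**
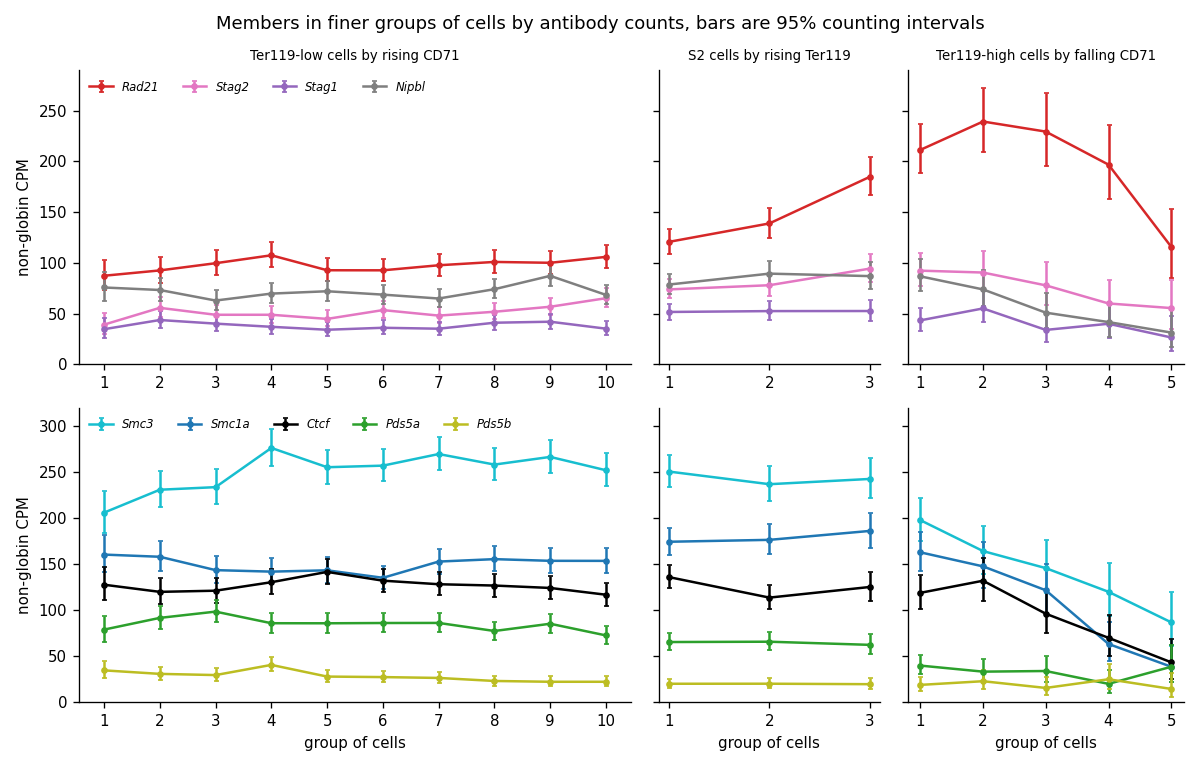
Level in non-globin CPM in finer groups of cells, 10 groups of Ter119-low cells by rising CD71, 3 groups of S2 cells by rising Ter119 and 5 groups of Ter119-high cells by falling CD71. Bars are exact 95% counting intervals. Rad21 goes from 121 to 185 within S2, reaches 239 in the second Ter119-high group and is 116 in the last.

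Other genes of the pathway were taken from fixed lists and compared between S3 and S0-low, with the 2 highest and 2 lowest of each list by CPM ratio named. The ratios include the S0-low cells above the marker border. Of the partners of the loader and of Pds5, *Wapl*, the release factor, was at 1.06 of S0-low per non-globin UMI (0.948–1.19) and *Mau2*, the partner of Nipbl, at 0.943 (0.690–1.27), neither beyond counting error. In CPM they were at 0.661 and 0.586, both at least 1.5-fold lower (2 of 2, background 76.8%).

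Condensin, the related SMC complex that compacts chromosomes for division, was higher per non-globin UMI in 8 of 8 genes by at least 1.5-fold, against 14.8% of all genes tested, with a median ratio of 2.31. In CPM 4 of 8 were that much higher (background 8.02%) and 0 lower (76.8%), and without the cells above the marker border 2 of 8 were higher in CPM and 8 of 8 per non-globin UMI. *Ncapd2* changed direction with the scale. The highest CPM ratios were those of *Ncaph* (1.98) and *Ncapg2* (1.63), and the lowest those of *Ncapd2* (0.985) and *Ncaph2* (1.28). Per non-globin UMI these 4 were at 3.18 (2.45–4.12), 2.62, 1.59 and 2.06.

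A further list held 11 genes tied to the acetylation of cohesin or to the cohesion of sister chromatids. Of these, 4 were at least 1.5-fold higher per non-globin UMI (background 14.8%) and 1 lower (56.3%). In CPM 2 were higher (8.02%) and 4 lower (76.8%), or 5 lower without the cells above the marker border. *Esco2*, the acetyltransferase of Smc3 in S phase, was at 3.07 per non-globin UMI (2.68–3.52) and 1.91 in CPM, and *Sgol2a*, a shugoshin that protects cohesin, at 2.99 (2.44–3.67) and 1.86. *Chtf8*, of a clamp loader used in cohesion, was at 0.379 and 0.236, and *Esco1*, the other acetyltransferase, at 0.7998 (0.555–1.13) and 0.497.

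Of the SMC5/6 complex, which acts in DNA repair, 1 of 6 genes was at least 1.5-fold higher per non-globin UMI, near the background of 14.8%, and 1 lower (56.3%), and in CPM 0 were higher (8.02%) and 4 lower (76.8%). *Nsmce1* was at 1.73 per non-globin UMI (1.55–1.92) and 1.07 in CPM and *Smc6* at 1.19 and 0.740, while *Smc5* was at 0.650 and 0.404 and *Ndnl2* at 0.875 and 0.544. Of 5 other factors tied to loops, 4 reached 50 UMIs. *Zfp143* was at 1.71 per non-globin UMI (1.254–2.32) and 1.06 in CPM and *Yy1* at 0.712 and 0.442, while *Ldb1*, a bridge between enhancers and promoters in erythroid cells, was at 0.498 (0.406–0.606) and 0.310 and *Maz* at 0.515 and 0.320.

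The germline forms of cohesin and CTCF, *Stag3*, *Rec8*, *Smc1b*, *Rad21l* and *Ctcfl*, were too rare to compare, and 0 of 5 reached 50 UMIs in S0-low and S3 together. *Stag3* and *Rec8* had 9 UMIs each in these populations, *Smc1b* had 2, and *Rad21l* and *Ctcfl* had 0.

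**Figure D5:**
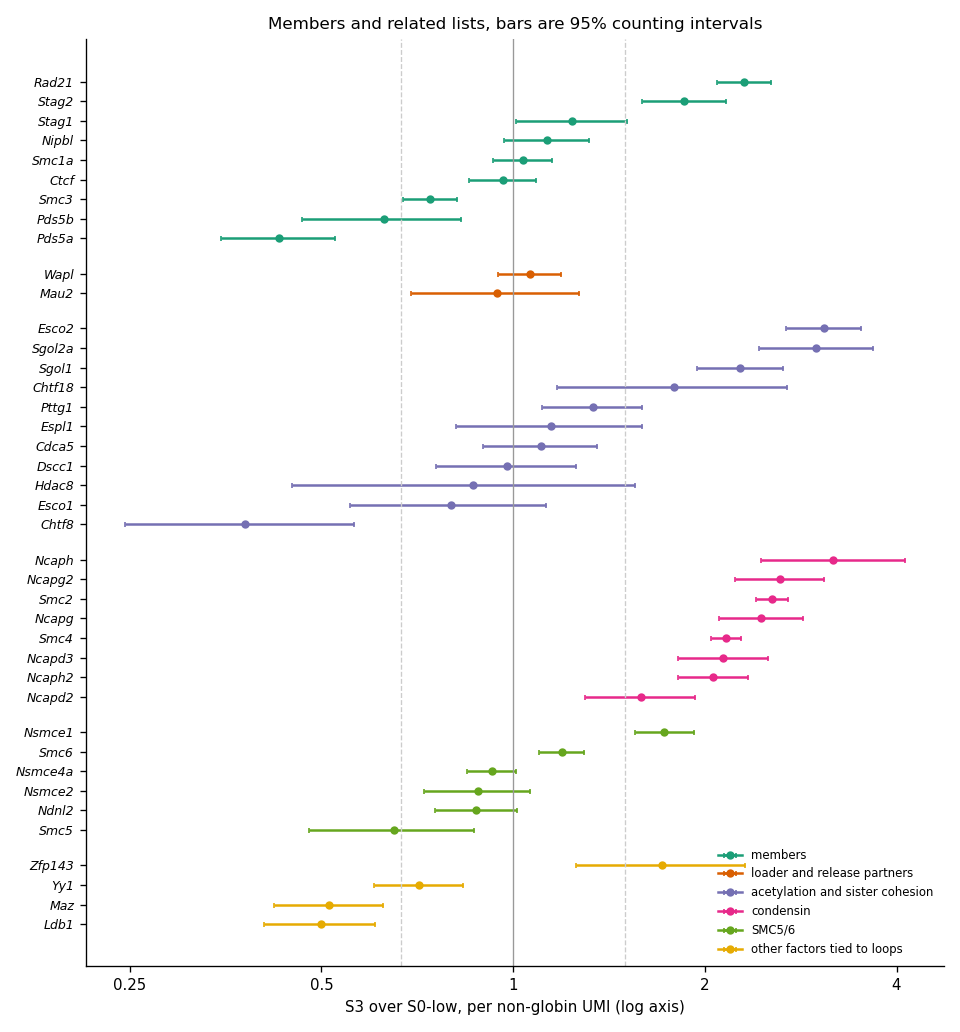
Ratio of S3 to S0-low per non-globin UMI for the members and 5 lists of related genes, on a log axis, for genes with at least 50 UMIs. Bars are exact 95% counting intervals and dashed lines mark 1.5-fold. The 8 condensin genes lie at 1.59 to 3.18, and the members at 0.429 to 2.31.

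Likeness to other genes was measured as the root mean square difference of log2 (CPM + 1) over the 6 populations after each gene was centred on its own mean, among 8242 genes with at least 200 UMIs. Closest to the sum of the members were *Srsf4* (0.03), *Sfswap* (0.04), *Rpl23a* (0.05), *H2afz* (0.05) and *Cuedc2* (0.05). Of the 5 genes closest to *Ctcf*, 4 are given, *Tmem57* (0.06), *Sympk* (0.07), *Txnrd1* (0.07) and *Keap1* (0.07). Among the members, *Ctcf* and *Nipbl* were most alike (0.11), followed by *Smc1a* and *Nipbl* (0.12), and *Rad21* and *Pds5a* least alike (1.04).

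The members were also read in part of the cells above the borders of other marker lists, which are ranges of marker counts and not cell types. Of the cells that passed the filters, 190 lay above the hepatocyte border, 628 above the myeloid, 97 above the megakaryocyte and 94 above the macrophage border. In the cells read, the median of the summed erythroid markers was 5492 CPM for the hepatocyte-marker-high cells and 5585 CPM for the myeloid-marker-high cells. In 186 hepatocyte-marker-high cells *Ctcf* was at 43.3 CPM (35.1–53.0), *Rad21* at 113 (99.1–128) and *Smc3* at 140 (124–156), and there were 0.807 *Rad21* UMIs per *Smc3* UMI. In 546 cells high in myeloid markers *Ctcf* was at 106 CPM, *Rad21* at 100 and *Smc3* at 184. In 83 cells high in megakaryocyte markers *Ctcf* was at 124 CPM, *Rad21* at 103 and *Smc3* at 166. The 15 cells read among those high in macrophage markers held only 75 UMIs of the members, and their values are not read further.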

How the data were processed

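Reads of the cDNA library (10x, 3′ kit v2) were mapped by the authors to the mm10 assembly with Cell Ranger, version v2.1.1, and the raw UMI counts per gene and cell were deposited. They also deposited raw counts per antibody and cell, and 1.05% of antibody reads matched no antibody. The deposited counts are not normalized and come before quality filters. The matrix holds 58606632 UMIs, with a median of 5707 per cell (range 2510 to 38047).

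Cells outside 300 to 5000 genes or over 9% mitochondrial UMIs were left out (508 cells), and a Scrublet method written for this work (expected rate 6%) removed 155 more as doublets, leaving 7200. Antibody counts were scaled by the centered log ratio. Cells whose 5 lineage antibodies summed above the median plus 2 scaled median absolute deviations were left out, leaving 6406, and 212 of these fell in no population. Ter119 was split by k-means into 3 classes, with borders at 24.5 and 88.0 counts, and CD71 into 3 classes in Ter119-low cells (borders 234.5 and 763.4) and 2 in Ter119-high cells (735.9). These gates stand in for those of the study, whose positions are not given in the sources used here.

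Levels are summed UMIs over summed totals of a population. Intervals are exact Poisson for levels, exact binomial for ratios, Clopper-Pearson for shares and conditional exact for the change of a ratio of 2 genes. The intervals cover counting error only, and the scripts were tested on simulated data. Cells were placed above a marker border by k-means into 3 classes of log10 (CPM + 10), added after the planned split into 2 classes had put 85.7% of cells above the hepatocyte border.

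The members and lists were chosen with earlier results of these data known. Named were all members, the 2 highest and 2 lowest genes of each list by CPM ratio of S3 over S0-low, the 5 genes most like the summed members and like *Ctcf*, and the genes that check the gates. A gene of the second likeness list and a gene that checks the gates are not reported here. Summed markers over the populations ranged from 265 to 8994 CPM for hepatocytes, 37.1 to 77.8 for megakaryocytes, 61.7 to 575 for myeloid cells, 6.59 to 42.5 for macrophages, 1.45 to 7.62 for lymphoid cells, 4.34 to 15.0 for endothelial cells, 32.3 to 526 for early progenitors and 7033 to 408268 for erythroid cells. Sequences come from RefSeq tables of GRCm38.p6. The tools were scikit-learn 1.9.0, scipy 1.17.1, numpy 2.4.6, pandas 2.3.3 and matplotlib 3.10.9 in Python 3.11.15, with random seed 7. Alternatives changed the denominator, the mean, depth, gates, filters and cells left out.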

Additional observations from a re-analysis of the deposited data

How the results depend on the processing

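No paired analysis was possible because the data are 1 library and no group has a second sample. Without a test, a value was compared with its counting interval under each alternative. Per cell, with no denominator, the summed members were at 1.35 for S0-medium over S0-low, 0.683 for S2 over S1, 0.501 for S3 over S2, 0.297 for S4/S5 over S3 and 0.453 for S3 over S0-low. On this scale the direction turned for *Pds5b* in S0-medium over S0-low (1.02), for *Rad21* (0.867), *Stag1* (0.869) and *Stag2* (0.828) in S2 over S1, and for *Rad21* in S3 over S2 (0.821) and S3 over S0-low (0.977). Of these values, those of *Pds5b*, of *Stag1* and of *Rad21* in S3 over S0-low were within counting error of 1. Per non-globin UMI the sum was at 1.09 for S2 over S1, 0.964 for S3 over S2, 0.626 for S4/S5 over S3 and 1.07 for S3 over S0-low, and 2 members were at least 1.5-fold lower in the last. There *Smc1a* (1.04), *Stag1* (1.24) and *Nipbl* (1.13) turned in S3 over S0-low, and *Stag2* (1.11) and *Pds5b* (1.04) in S3 over S2. Of these only *Stag1* (1.01–1.51) differed from 1 beyond counting error.

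The mean over cells gave 0.908 for S2 over S1 and 0.584 for S3 over S0-low in CPM, and 0.958 per non-globin UMI for the latter. For *Ctcf* alone that last value was 0.827. Thinned to 2000 UMIs, the sum was at 0.917 for S0-medium over S0-low, 0.916 for S2 over S1, 0.404 for S4/S5 over S3 and 0.571 for S3 over S0-low (0.996 per non-globin UMI), and *Smc3* at 0.969 for S0-medium over S0-low. Gates from log10 counts gave 1.04 for S0-medium over S0-low, 0.732 for S3 over S2, 0.297 for S4/S5 over S3, 0.740 for S3 over S0-low and a 2.32-fold change of *Rad21* per *Smc3*. They placed 641 cells in S0-low and 1694 in S3, and *Smc3* in S3 over S0-low was then 0.927 per non-globin UMI. A Gaussian mixture, with 583 cells in S0-low and 1807 in S3, gave 0.270 for S4/S5 over S3 and 2.55-fold for *Rad21* per *Smc3*. CD71 terciles gave 1.04 for S0-medium over S0-low. S4/S5 over S3 was 0.319 without border cells and 0.448 with lineage-high cells kept. Keeping lineage-high cells also gave 0.705 for S3 over S0-low and a 1.29-fold change of *Stag2* per *Stag1* from S0-low to S3, the lowest of the alternatives. With doublets kept, S3 over S2 was 0.717 and S3 over S0-low 0.698. With a 2-fold limit 3 members were lower in S3 than in S0-low in CPM (background 65.5%), and at 1.5-fold the count of 5 ran from 4 with log10 gates to 7 with the mean over cells.

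Leaving out cells above the 3-class marker borders, an alternative chosen after seeing the data, gave 0.953 for S0-medium over S0-low, 0.628 for S3 over S0-low and 0.980 for *Smc3* in S0-medium over S0-low. The planned 2-class borders left between 25 and 129 cells per population, so its values rest on few UMIs. They were 0.819, 1.03, 0.922, 0.603 and 0.549 for the sum in S0-medium over S0-low, S1 over S0-medium, S2 over S1, S4/S5 over S3 and S3 over S0-low, with 0.944 per non-globin UMI for the last, 2.08-fold for *Rad21* per *Smc3* and 4.44-fold for *Stag2* per *Stag1*. In CPM, S3 over S0-low was then 1.01 for *Rad21*, 0.253 for *Stag1*, 0.158 for *Pds5b* and 0.0653 for *Pds5a* (0.112 per non-globin UMI). *Ctcf* was at 1.24 per non-globin UMI there. In these cells the direction turned for *Smc3* in S0-medium over S0-low (0.789) and S3 over S2 (1.06), *Ctcf* in S1 over S0-medium (1.38) and S3 over S2 (1.07), *Rad21* in S3 over S2 (0.799) and S4/S5 over S3 (1.203), and *Pds5b* in S4/S5 over S3 (3.50). The cause of these shifts was not tested. Dropping the limits on genes and mitochondrial UMIs moved 0 of 54 values of single members out of their intervals. Depth limits *Pds5b*, *Pds5a*, *Stag1* and *Nipbl* in S4/S5, with 24, 36, 45 and 53 UMIs.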
